A study of Mus musculus with 24 samples.

Results

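Counts of 9 transcription factor genes, Gata2, Tal1, Lyl1, Lmo2, Fli1, Erg, Runx1, Gfi1b and Etv6, were examined in RNA sequencing libraries made from hematopoietic stem cells (HSCs) sorted from mice. The first 7 form what is called the stem cell heptad, and Gfi1b and Etv6 act beside them in stem cells and megakaryocytes. The genes were taken by name, through their Ensembl IDs, from 55487 gene IDs counted in each of 24 libraries, and all 9 passed the filter on low counts in every comparison. The question was how far this set of factors differed when PUS10, an enzyme that converts uridine to pseudouridine in RNA, was overexpressed or targeted, and when the microRNA miR-139 was knocked down.

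The heptad factors bind side by side at enhancers of blood stem cell genes. GATA2 is a zinc finger protein that binds GATA sequences, and TAL1 and LYL1 are related basic helix-loop-helix proteins that bind E-boxes. LMO2 binds no DNA itself and bridges the TAL1 or LYL1 dimer to a GATA factor, FLI1 and ERG are related ETS factors, and RUNX1 binds DNA with its partner CBFB. GFI1B is a zinc finger repressor needed for platelet and red cell formation, and ETV6 is an ETS repressor that keeps adult stem cells in the marrow. GATA1 takes the place of GATA2 as cells become megakaryocytes or red cells, and it was measured as the partner of Gata2.

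The 3 comparisons were cells overexpressing PUS10 (PUS10-OE, n = 3) against vector controls (Vector, n = 3), cells with knockdown of miR-139 (miR139-KD, n = 6) against a non-target control (NTC, n = 6), and libraries labelled Pus10-KO (n = 3) against Pus10-WT (n = 3). The labels used here give no strain, age, vector promoter or method of knockdown, and they name no animals. The p-values therefore set differences between groups only against the spread among libraries of a group, which may be technical. In PUS10-OE libraries Pus10 stood at 285, 246 and 242 CPM (gene counts scaled to 1 M per library after TMM normalisation), against 53.6, 92.8 and 81.5 CPM in Vector libraries. The libraries labelled Pus10-KO did not have less of it, at 35.6, 33.7 and 36.3 CPM, against 19.6, 31.8 and 33.8 CPM in Pus10-WT libraries. The counts of the targeted gene thus do not bear out that label, but counts over a whole gene cannot show a deletion of part of it. Each PUS10-OE library held 40.9 to 42.6 M gene counts (M, mega) and each Vector library 34.2 to 47.3 M. The depth was lower in the knockdown experiment, with 9.87 to 14.4 M per miR139-KD library and 11.8 to 14.7 M per NTC library, and in Pus10-KO (11.9 to 18.2 M) and Pus10-WT (14.5 to 16.5 M). In the knockdown experiment 3 libraries stood apart by markers of other cells. Plasma cell markers (4 genes) summed to 9456 CPM in miR139-KD replicate 5, 2891 CPM in miR139-KD replicate 6 and 10300.1 CPM in NTC replicate 5, against 15.4 to 619 CPM in the other miR139-KD libraries and 8.86 to 81.2 CPM in the other NTC libraries. Mast cell and basophil markers (8 genes) summed to 2041 CPM in miR139-KD replicate 6, against at most 61.6 CPM in the other miR139-KD libraries and at most 80.8 CPM in NTC. Prss34 and Mcpt8 made up most of that sum, at 1325 and 549 CPM, while Mcpt4 and Gzmb were at 0.

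The gene models come from GENCODE M21 on GRCm38, and all 9 genes are protein-coding. Gata2 (ENSMUSG00000015053.14) lies at chr6:88193891-88207032 on the plus strand, Tal1 (ENSMUSG00000028717.12) at chr4:115056426-115071755 on the plus strand, and Lyl1 (ENSMUSG00000034041.5) at chr8:84701457-84704715 on the plus strand. Lmo2 (ENSMUSG00000032698.15) lies at chr2:103957986-103981878 on the plus strand, Fli1 (ENSMUSG00000016087.13) at chr9:32422204-32542861 on the minus strand, and Erg (ENSMUSG00000040732.20) at chr16:95359169-95586593 on the minus strand. Runx1 (ENSMUSG00000022952.17) lies at chr16:92601466-92826149 on the minus strand, Gfi1b (ENSMUSG00000026815.14) at chr2:28609450-28621982 on the minus strand, and Etv6 (ENSMUSG00000030199.16) at chr6:134035700-134270158 on the plus strand. Smart-seq2 does not record strand, so reads in 106 bases that Runx1 shares with the antisense gene Gm26626, and in 135 bases that Etv6 shares with the antisense gene Gm17089, cannot be assigned to either with certainty. The antisense genes held few counts, at most 42 for Gm26626 and at most 135 for Gm17089 in any library.

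Promoter windows of 300 bases, from 250 bases before to 50 bases after each annotated start, were read from RefSeq (GRCm38.p6) for 7 of the 9 genes, in 12 windows. Lmo2 and Fli1 had no entry. They were searched on both strands for the 6-base motifs bound by the family itself, namely AGATAA or TGATAA for GATA factors, AGGAAG or CGGAAG for ETS factors, TGTGGT for RUNX1, CAGATG or CAGCTG for E-boxes, and AATCAC for GFI1B. No 2 matches overlapped in the windows shown. Of the 12 windows 3 held a GATA match, 4 an ETS match, 1 a RUNX match, 2 an E-box match and 2 a GFI match, while the shares of all 32851 mouse promoters with a match were 18.6%, 46.5%, 16.8%, 30.6% and 10.4% in the same order. For each gene called higher on miR-139 knockdown that has an entry, 1 window with a match is shown 5′ to 3′ in the direction of the gene, the one with the most matches, with matches to any motif, read on either strand, in capitals.
Gata2, second start, chr6:88198414-88198713, plus strand: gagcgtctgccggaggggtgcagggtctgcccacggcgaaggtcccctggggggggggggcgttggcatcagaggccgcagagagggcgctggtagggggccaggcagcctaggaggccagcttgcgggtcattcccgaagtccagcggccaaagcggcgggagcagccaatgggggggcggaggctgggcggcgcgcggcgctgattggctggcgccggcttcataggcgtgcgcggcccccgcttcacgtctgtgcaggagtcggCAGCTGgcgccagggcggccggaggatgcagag
Tal1, first start, chr4:115056176-115056475, plus strand: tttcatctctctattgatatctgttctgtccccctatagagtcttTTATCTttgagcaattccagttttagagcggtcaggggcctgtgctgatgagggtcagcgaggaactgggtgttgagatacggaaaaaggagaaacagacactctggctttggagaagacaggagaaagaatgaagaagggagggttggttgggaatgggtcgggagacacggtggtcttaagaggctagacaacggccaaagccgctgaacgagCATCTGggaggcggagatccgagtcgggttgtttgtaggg
Runx1, first start, chr16:92826025-92826324, minus strand: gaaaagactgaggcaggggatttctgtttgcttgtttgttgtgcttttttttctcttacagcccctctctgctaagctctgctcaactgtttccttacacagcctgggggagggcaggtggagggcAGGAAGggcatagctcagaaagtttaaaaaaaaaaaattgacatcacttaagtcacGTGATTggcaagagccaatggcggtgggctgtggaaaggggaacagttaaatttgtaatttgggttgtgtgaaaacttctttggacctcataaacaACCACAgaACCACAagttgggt
Gfi1b, chr2:28621933-28622232, minus strand: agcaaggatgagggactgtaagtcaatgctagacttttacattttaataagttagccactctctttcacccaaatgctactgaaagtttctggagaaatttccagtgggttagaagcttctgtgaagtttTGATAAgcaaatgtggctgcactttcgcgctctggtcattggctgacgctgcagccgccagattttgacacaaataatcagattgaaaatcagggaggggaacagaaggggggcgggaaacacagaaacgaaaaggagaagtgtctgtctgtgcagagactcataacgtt
Etv6, chr6:134035450-134035749, plus strand: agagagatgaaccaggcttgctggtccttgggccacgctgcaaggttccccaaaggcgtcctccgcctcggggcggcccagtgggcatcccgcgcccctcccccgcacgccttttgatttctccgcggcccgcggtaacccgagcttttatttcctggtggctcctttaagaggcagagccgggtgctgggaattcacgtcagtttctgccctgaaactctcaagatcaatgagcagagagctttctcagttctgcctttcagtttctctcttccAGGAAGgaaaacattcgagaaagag

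In these windows Gata2 held an E-box match at position 18, counted from the start site, and Tal1 a GATA match at -205 and an E-box match at 11. Runx1 held matches for its own family at 29 and 37, an ETS match at -124 and a GFI match at -68. Its second window, chr16:92697280-92697579 and not shown, held a GFI match at -94. Gfi1b held a GATA match at -120 and Etv6 an ETS match at 26. A match is a run of letters and not a measured binding site, and these libraries measured no binding.

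The knocked-down microRNA has an arm on each side of its hairpin, and both mature sequences are given from RefSeq (GRCm38.p6) with the seed, bases 2 to 8, in capitals.
mmu-miR-139-5p, chr7:101475382-101475403, plus strand: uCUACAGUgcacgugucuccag
mmu-miR-139-3p, chr7:101475418-101475439, plus strand: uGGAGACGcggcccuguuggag

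The 3′ untranslated regions of the 9 genes (1 transcript each, GENCODE M21) were searched for the reverse complement of each seed. The 5p site, ACTGTAG, was found in Erg alone among the 9, at base 323 of a region of 1637 bases and followed by an A.
Erg, 5p site in capitals: ttaagtagtgtacaaACTGTAGagtgtggg
The 3p site, CGTCTCC, was found in Gata2 alone, at base 695 of a region of 1538 bases.
Gata2, 3p site in capitals: tctggaaaggggaaaCGTCTCCcagatcat
Of 11111 tested genes with such a region, 13.2% held a 5p site and 4.06% a 3p site. Erg, which holds the 5p site, was not called on knockdown, and the other 5 called genes hold neither site.

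Levels were compared between genes per length, as CPM per kilobase of exon. Lmo2 had the highest mean level of the 9 in 4 groups, at 536 ± 20.5 in Pus10-KO and 366 ± 71.7 in Pus10-WT (SD, n = 3 each), and at 313 ± 27.1 in miR139-KD and 260 ± 26.9 in NTC (n = 6 each). Its lowest library lay above the highest library of the next gene in each of these groups. In the PUS10 overexpression experiment the order at the top differed: Gfi1b stood at 155 ± 32.5, Lyl1 at 119 ± 20.3 and Lmo2 at 104 ± 23.4 in PUS10-OE, and Gfi1b at 135 ± 15.5, Lyl1 at 139 ± 11.4 and Lmo2 at 103 ± 17.9 in Vector (n = 3 each). In PUS10-OE the ranges of these neighbours overlapped. In Vector those of Lyl1 and Gfi1b overlapped and Lmo2 lay below both.

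Erg and Runx1 had the lowest mean levels per length in every group, between 5.08 ± 0.677 CPM per kilobase for Runx1 in Vector and 11.1 ± 0.790 for Runx1 in miR139-KD. Erg and Runx1 overlapped in all 6 groups, and Tal1, next above, overlapped Erg in PUS10-OE, Vector and NTC. Gata2, Etv6, Fli1 and Tal1 lay between. In miR139-KD Gata2 stood at 53.5 ± 11.9, Etv6 at 36.4 ± 6.37, Fli1 at 36.0 ± 10.7 and Tal1 at 30.4 ± 7.10, each overlapping the next, while in NTC the same 4 stood at 22.9 ± 5.55, 21.9 ± 3.93, 20.02 ± 4.31 and 16.5 ± 4.43, again with each overlapping the next. On a scale common to all 24 libraries, Lmo2 and Tal1 were lower in the overexpression experiment than in every library of the other 4 groups. Lmo2 ranged from 191 to 293 CPM in PUS10-OE and 197 to 276 CPM in Vector, and was at least 476 CPM elsewhere. Tal1 ranged from 27.3 to 37.7 CPM in PUS10-OE and 25.9 to 28.3 CPM in Vector, and stayed at or above 45.6 CPM in every library of the other 4 groups. The experiments were not randomised against each other, so such a gap cannot be told apart from a difference between experiments in cells or library making.

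**Figure D1:**
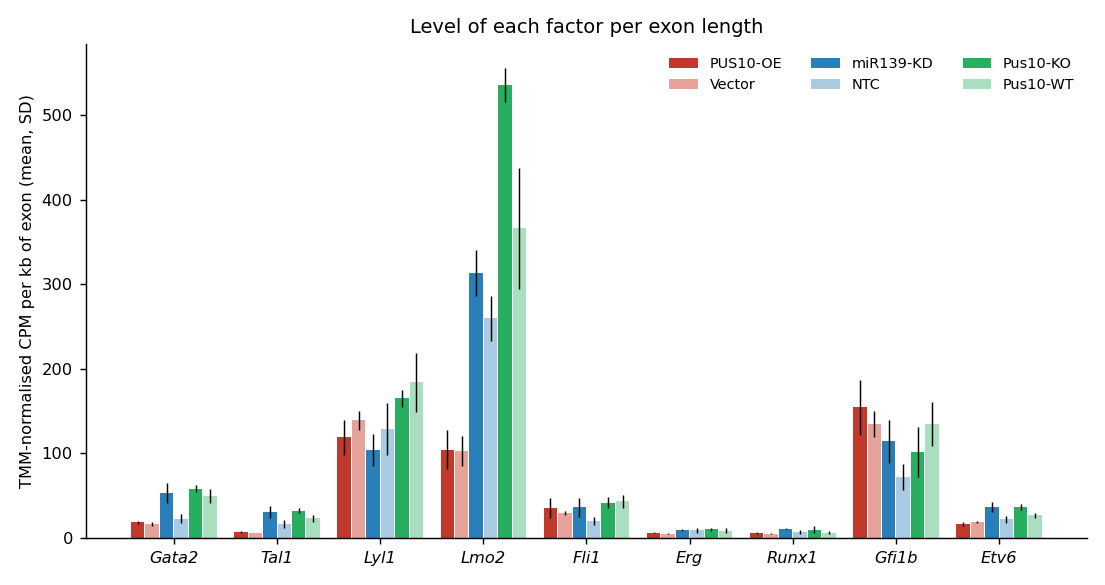
Mean level of each factor in CPM per kilobase of exon (vertical axis, linear from 0), with error bars of 1 SD, for PUS10-OE, Vector, miR139-KD, NTC, Pus10-KO and Pus10-WT from left to right. Lmo2 was highest in 4 of the 6 groups, up to 536 in Pus10-KO, and Erg and Runx1 stayed at 11.1 or below.

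On miR-139 knockdown 6 of the 9 factors were called higher and 0 lower. Gata2 was 2.34-fold higher, Tal1 1.84-fold, Fli1 1.80-fold, Etv6 1.67-fold, Runx1 1.60-fold and Gfi1b 1.58-fold, while Lmo2, Erg and Lyl1 were not called. Over all 13295 genes tested edgeR called 361, or 2.72%, with 187 higher, or 1.41%. The median log2 fold change of the 9 was 0.68, against 0.02 over all genes tested. A log2 fold change above 0 was found for 8 of the 9, and for 51.4% of all genes. Bulk libraries cannot tell apart fewer cells of a type and less RNA per cell. The list of 9 was put together with results of these libraries known, so its count is a description and not independent evidence of a direction.

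Gata2, the zinc finger member, held from 2389 to 4337 counts per miR139-KD library and from 1224 to 2371 per NTC library. The lowest, median and highest of the 6 miR139-KD libraries were 194, 285 and 381 CPM, against 83.4, 125 and 166 CPM in the 6 NTC libraries. All 6 miR139-KD libraries lay above all 6 NTC libraries. The mean was 289 ± 64.4 CPM in miR139-KD and 123 ± 29.98 CPM in NTC (SD, n = 6 each). Its log2 fold change was 1.23 (SE 0.180, 95% interval 0.84 to 1.61, edgeR adjusted p = 0.00226). By p-value Gata2 ranked 40 of the 13295 genes.

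Among the basic helix-loop-helix pair, the miR139-KD libraries had 98.8, 127 and 189 CPM of Tal1 (lowest, median, highest), against 45.4, 77.0 and 99.1 CPM in NTC. The ranges touched only through NTC replicate 4, at 99.1 CPM, and miR139-KD replicate 2, at 98.8 CPM. Tal1 averaged 133 ± 31.1 CPM in miR139-KD and 72.2 ± 19.4 CPM in NTC, or 0.88 on the log2 scale (SE 0.196, edgeR adjusted p = 0.0284). Lyl1, its relative, had 123, 200.05 and 212 CPM in miR139-KD, against 165, 213 and 304 CPM in NTC, so the groups overlapped widely. Its log2 fold change was -0.31 (SE 0.166, 95% interval -0.66 to 0.05, edgeR adjusted p = 0.392).

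Lmo2, the bridging protein, had 595, 665 and 755 CPM in miR139-KD, against 475, 590 and 609 CPM in NTC. Only miR139-KD replicate 4, at 595 CPM, fell within the NTC range. Lmo2 averaged 679 ± 58.7 CPM in miR139-KD and 562 ± 58.3 CPM in NTC, a log2 fold change of 0.27 (SE 0.0858, 95% interval 0.09 to 0.46) that did not pass over all genes (unadjusted p = 0.00651, edgeR adjusted p = 0.117).

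Of the ETS pair, Fli1 had 80.0, 117 and 191 CPM in miR139-KD, against 53.8, 67.9 and 94.4 CPM in NTC. Only miR139-KD replicate 4, the lowest, fell within the NTC range. Fli1 averaged 126 ± 37.4 CPM in miR139-KD and 69.8 ± 15.02 CPM in NTC, or 0.85 on the log2 scale (SE 0.197, edgeR adjusted p = 0.0343). Erg had 25.4, 31.5 and 36.5 CPM in miR139-KD, against 21.1, 26.9 and 48.8 CPM in NTC. The miR139-KD libraries of Erg lay inside the wider NTC range, and its log2 fold change was 0.01 (SE 0.233, edgeR adjusted p = 0.989). The 95% interval of Erg, -0.49 to 0.51, holds values as far from 0 as -0.49, and it does not show that Erg was the same in both groups.

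Runx1, the partner of CBFB, had 121, 134 and 149 CPM in miR139-KD, against 62.1, 77.4 and 122 CPM in NTC, and the ranges touched only through NTC replicate 2, the highest. It averaged 133 ± 9.499 CPM in miR139-KD and 83.2 ± 22.5 CPM in NTC, or 0.68 on the log2 scale (SE 0.156, edgeR adjusted p = 0.0320). Of the repressors, Gfi1b had 161, 188 and 276 CPM in miR139-KD, against 99.0, 130.03 and 173 CPM in NTC. Its log2 fold change was 0.66 (SE 0.165), and its edgeR adjusted p of 0.0481 was the closest to the threshold of 0.05 among the 6. Etv6 had 174, 207 and 277 CPM in miR139-KD, against 102, 129 and 166 CPM in NTC. All 6 miR139-KD libraries lay above all 6 NTC libraries for Etv6, and its log2 fold change was 0.74 (SE 0.141, 95% interval 0.44 to 1.04, edgeR adjusted p = 0.0122).

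Gata2 and Etv6 were thus the 2 of 9 factors whose groups did not overlap with the knockdown higher, where 1.65% of all genes tested showed this. An unadjusted p under 0.05 was found for 7 of the 9, the 6 called and Lmo2, against 16% of all genes (2133 of 13295). Gata2 and Etv6 also stayed called when any 1 library was left out, with edgeR adjusted p of at most 0.00734 and at most 0.0362. The other calls were less firm. Tal1 lost its call without NTC replicate 3, NTC replicate 6, miR139-KD replicate 3 or miR139-KD replicate 6 (adjusted p up to 0.0588). Fli1 kept its call in 5 of the 12 omissions (NTC replicates 1 and 6, miR139-KD replicates 3, 4 and 6), Runx1 in 3 (NTC replicates 1 and 2, miR139-KD replicate 3) and Gfi1b in 2 (NTC replicate 2, miR139-KD replicate 5), and each lost it in the others, with adjusted p up to 0.0785, 0.0730 and 0.109. Gfi1b was also not called by limma-voom (adjusted p = 0.0553) or by edgeR without the filter on low counts (adjusted p = 0.0614). Without the 3 libraries that stood apart by plasma cell or by mast cell and basophil markers, 201 genes and 1 of the 9 factors were called, Gata2 with an edgeR adjusted p of 0.0260. The log2 fold changes there were 1.18 for Gata2, 0.71 for Tal1, 0.89 for Fli1, 0.63 for Runx1, 0.77 for Gfi1b and 0.69 for Etv6.

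**Figure D2:**
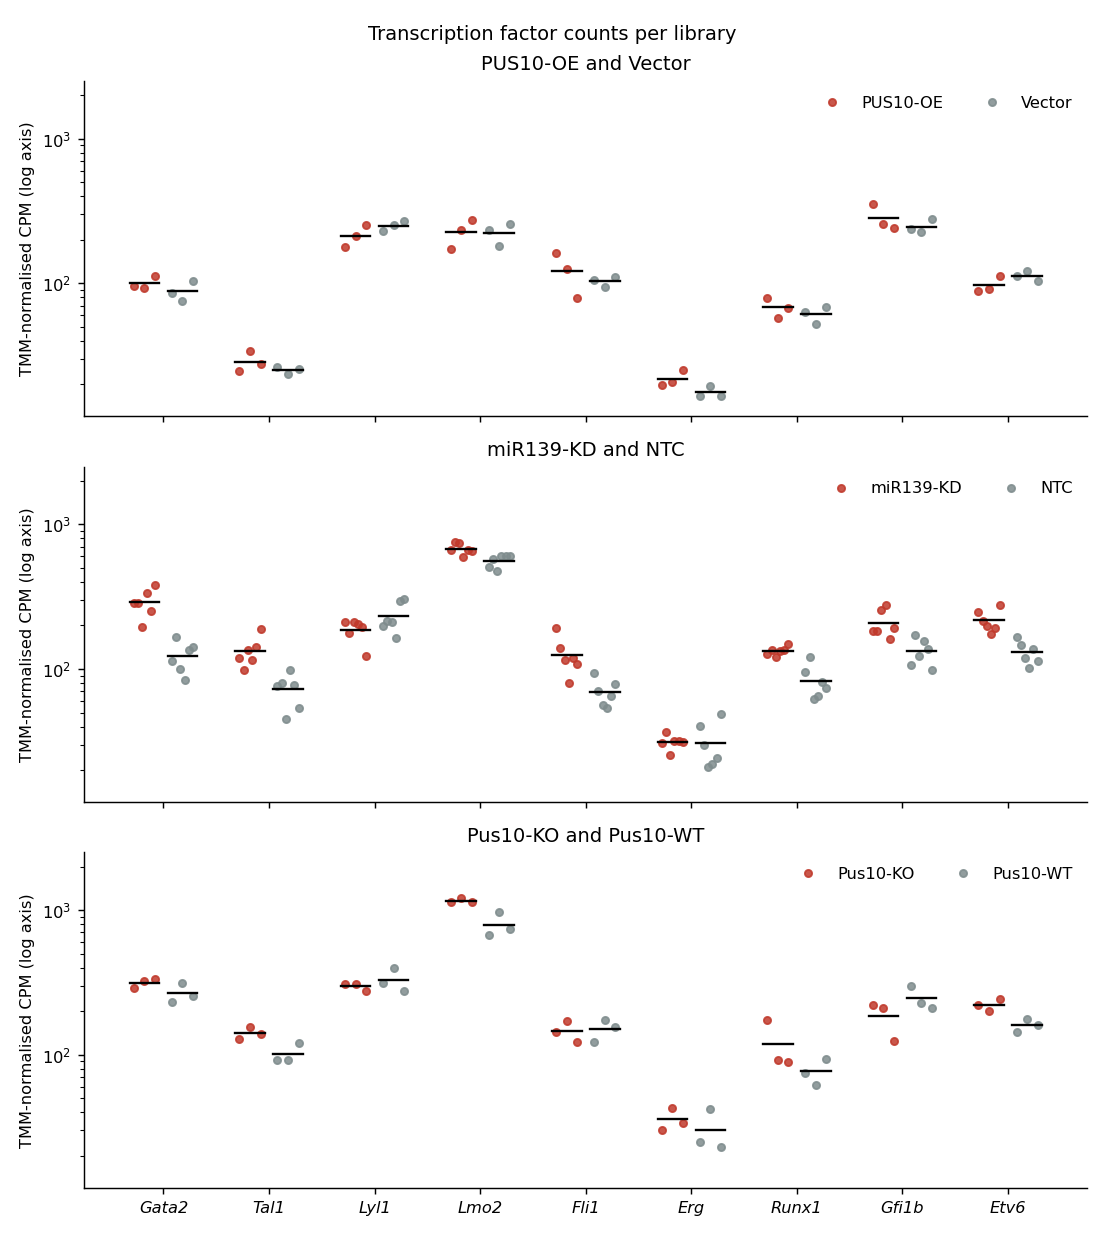
Level of each factor in every library (points; vertical axis TMM-normalised CPM, log scale), with the treated group left of its control and a bar at the group mean. On miR-139 knockdown the Gata2 and Etv6 groups do not overlap, and the Pus10-KO libraries lie above the Pus10-WT libraries for Tal1, Lmo2 and Etv6.

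Genes related to these factors were counted from lists that had also been put together with earlier results known. Each list leaves out the 9 factors. The list of 20 complex partners also holds relatives such as Gata3, Runx2 and Runx3, and the inhibitors Id1, Id2 and Id3. Of these 20 genes, 8 had a higher value on miR-139 knockdown and 1 was called, with a median log2 fold change of -0.04. The called gene was Zfpm1, whose protein FOG1 binds GATA factors, at 151 ± 28.0 CPM in miR139-KD and 79.4 ± 22.4 CPM in NTC (log2 fold change 0.93, SE 0.189, edgeR adjusted p = 0.0183). The corepressor Cbfa2t3 stood at 0.62 (SE 0.162, adjusted p = 0.0570), the LDB1 cofactor Ssbp3 at 0.52 (adjusted p = 0.131) and Id3, an inhibitor of helix-loop-helix proteins, at -2.51 (SE 0.780, adjusted p = 0.1099), and edgeR called none of the 3. Of 9 tested ETS family genes, 6 had a higher value and 0 were called, with a median of 0.10. Ets1 stood at -1.62 (SE 0.465, adjusted p = 0.0817), Spi1, which encodes PU.1, at -0.57 (adjusted p = 0.249), Ets2 at 0.74 (adjusted p = 0.427) and Etv3 at 0.53 (adjusted p = 0.413).

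Of 13 tested genes listed with the corepressors of GFI1B and ETV6, 9 had a higher value and edgeR called 0. Their median log2 fold change was 0.12, and the list includes Gfi1, which is not a corepressor. Ncor1 stood at 0.22, Rcor3 at 0.59 and Gfi1, the relative of Gfi1b, at -0.90, with edgeR adjusted p between 0.260 and 0.522. Of 13 other factors of megakaryocytes and red cells, 10 had a higher value and 1 was called, again Zfpm1, with a median of 0.23. The heme-responsive repressor Bach1 stood at 1.08, the NF-E2 partner Mafk at -1.21 and Mef2c at 0.45, with edgeR adjusted p of 0.179, 0.176 and 0.196.

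Of 19 stem cell genes with heptad-bound elements reported elsewhere, 13 had a higher value, 2 were called higher and 1 lower, with a median log2 fold change of 0.27. Zfpm1 and Angpt1, the ligand of the TIE2 receptor, were higher (Angpt1 at 169 ± 14.2 CPM in miR139-KD and 105 ± 28.1 CPM in NTC, log2 fold change 0.68, edgeR adjusted p = 0.0257). Cd34, a surface protein that is high on multipotent progenitors, fell to 149 ± 36.9 CPM in miR139-KD, against 374 ± 103 CPM in NTC (log2 fold change -1.33, edgeR adjusted p = 0.00264). Of 20 megakaryocyte genes, 15 were tested, 15 had a higher value, and 9 were called higher and 0 lower, with a median of 2.11. The integrin Itga2b stood at 246 ± 65.9 CPM in miR139-KD and 64.5 ± 20.8 CPM in NTC (log2 fold change 1.93, edgeR adjusted p = 0.00115). The chemokine gene Pf4 was 4.31 higher on the log2 scale, the platelet glycoprotein gene Gp9 2.19 and Nrgn 1.43, with edgeR adjusted p of 0.00179, 0.00200 and 0.00293. The summed level of the 20 genes did not overlap between groups, at 1451 to 3136 CPM in miR139-KD and 189 to 445 CPM in NTC.

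**Figure D3:**
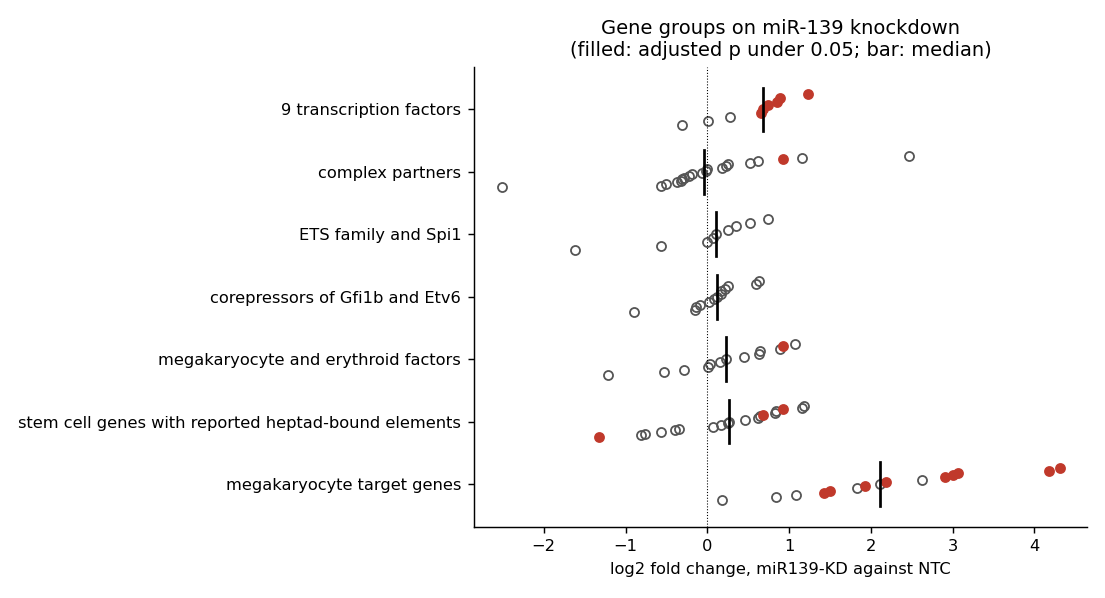
Log2 fold change of miR139-KD against NTC (horizontal axis) for each tested gene of the 9 factors and 6 lists of related genes (rows). Filled points have an edgeR adjusted p under 0.05 and bars mark medians. The 9 factors have a median of 0.68 and the megakaryocyte target genes one of 2.11. The list of complex partners, which includes relatives and inhibitors, lies around 0 with a median of -0.04.

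Markers of cell types moved with the same comparison. All 10 HSC markers had a higher value on miR-139 knockdown, and 1, Slamf1, was called. Their sums overlapped, at 573 to 732 CPM in miR139-KD and 398 to 649 CPM in NTC. The overlap came from NTC replicate 6 alone, at 649 CPM, while the other NTC libraries held 398 to 500 CPM. All 4 multipotent progenitor markers, Flt3, Cd48, Cd34 and Satb1, were called lower, with summed levels of 214 to 291 CPM in miR139-KD and 567 to 1023 CPM in NTC. Of 6 tested B cell markers 3 were called lower, with sums of 29.2 to 269 CPM in miR139-KD and 535 to 1007 CPM in NTC. Of 6 megakaryocyte markers 4 were tested and 3 called higher, with sums of 822 to 2326 CPM in miR139-KD and 37.3 to 163 CPM in NTC, and Gp6 at 0 in every library of both groups. Erythroid and neutrophil markers gave 0 calls and overlapping sums, at 1198 to 9711 CPM and 1379 to 17756 CPM in miR139-KD, against 661 to 11711 CPM and 1114 to 19084 CPM in NTC. The 6 T and NK cell markers summed to 190 to 395 CPM in miR139-KD and 301 to 490 CPM in NTC, nearly all from Nkg7, the 1 tested, which stood at -0.46 (edgeR adjusted p = 0.254), while Cd3e, Cd3g and Cd8a were at 0 in all 12 libraries. The part of these cell types in the values of Gata2, Tal1, Fli1, Runx1, Gfi1b and Etv6 was not tested. miR139-KD replicate 6, with the highest mast cell and basophil sum, had the highest Gata2, Tal1, Runx1 and Etv6 of its group and the lowest Lyl1. Without it Gata2 and Etv6 were still called.

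Overexpression of PUS10 gave no call among the 9 factors. Over all 14834 genes tested edgeR called 0, or 0%, while 1215, or 8.19%, had an unadjusted p under 0.05 and DESeq2 called 177. The overexpressed gene was thus not called by edgeR either, though Pus10 averaged 257 CPM in PUS10-OE and 75.9 CPM in Vector. The lack of a call therefore does not show that a factor was unchanged. Of the 9 factors 0 had an unadjusted p under 0.05, and the lowest edgeR adjusted p was 0.768, that of Lyl1. The values were higher for 7 of the 9, against 50.7% of all genes, with a median log2 fold change of 0.19, against 0.01 over all genes.

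Erg was the 1 factor whose groups did not overlap, with 19.7, 20.8 and 24.95 CPM in PUS10-OE libraries, against 16.7, 19.6 and 16.7 CPM in Vector libraries. All 3 PUS10-OE libraries lay above the Vector libraries, as they did for 8.31% of all genes. Its log2 fold change was 0.30 (SE 0.187, 95% interval -0.13 to 0.73, edgeR adjusted p = 0.776). Gata2 had 96.1, 92.6 and 112 CPM in PUS10-OE, against 85.5, 74.8 and 104 CPM in Vector, with overlapping groups, and its log2 fold change was 0.19 (95% interval -0.15 to 0.53, edgeR adjusted p = 0.848). Tal1 stood at 0.19, Fli1 at 0.24, Runx1 at 0.16, Gfi1b at 0.20 and Lmo2 at 0.02, and the 2 lower values were those of Lyl1 at -0.23 and Etv6 at -0.21. The widest of the 9 intervals, that of Fli1, ran from -0.30 to 0.79. Fli1 had 161, 126 and 78.6 CPM in PUS10-OE, and 105, 93.8 and 110 CPM in Vector.

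The related lists gave 0 edgeR calls on PUS10 overexpression. Their median log2 fold changes were -0.08 for the complex partners, -0.13 for ETS family genes, -0.05 for the corepressors, -0.05 for megakaryocyte and erythroid factors, -0.07 for the stem cell genes and 0.52 for the megakaryocyte target genes, of which 14 of 17 tested had a higher value. Gata1 was low in this experiment, with 1 and 46 counts in Vector replicates 2 and 3, at 10.8, 5.34 and 9.65 CPM in PUS10-OE, against 4.65, 0.02 and 1.33 CPM in Vector.

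In the libraries labelled Pus10-KO, 0 of the 9 factors were called against Pus10-WT, and 3, Lmo2, Etv6 and Tal1, had unadjusted p under 0.05 and groups that did not overlap. Over all 14657 genes edgeR called 9, or 0.0614%, while 1006, or 6.86%, had an unadjusted p under 0.05. The share of all genes whose Pus10-KO libraries lay above all Pus10-WT libraries was also 6.86%. The log2 fold changes of the 9 had a median of 0.24, against -0.0034 over all genes, and 6 of 9 were above 0, against 49.7% of all genes.

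Lmo2 had 1140.0, 1211 and 1129 CPM in the Pus10-KO libraries, against 668, 967 and 745 CPM in the Pus10-WT libraries. Its log2 fold change was 0.55 (SE 0.137, 95% interval 0.23 to 0.87, unadjusted p = 0.00442, edgeR adjusted p = 0.501). DESeq2, which called 146 genes or 0.996%, called Lmo2 with an adjusted p of 0.00398 and no other of the 9. Etv6 had 220, 201 and 243 CPM in Pus10-KO, against 144, 177 and 160.2 CPM in Pus10-WT (log2 fold change 0.47, SE 0.132, unadjusted p = 0.00820, edgeR adjusted p = 0.509). Tal1 had 129, 155 and 139 CPM in Pus10-KO, against 91.4, 91.5 and 120 CPM in Pus10-WT (0.49, SE 0.162, unadjusted p = 0.0182, edgeR adjusted p = 0.582).

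Runx1 had the largest value in this comparison, 0.62, and one of the widest intervals, -0.06 to 1.31. Its libraries had 173, 92.6 and 89.1 CPM in Pus10-KO, against 74.4, 62.2 and 93.1 CPM in Pus10-WT. Without Pus10-KO replicate 1, the highest, the value was 0.25. Gfi1b had 222, 211 and 124 CPM in Pus10-KO, against 301, 226 and 211 CPM in Pus10-WT, and stood at -0.40 (95% interval -0.96 to 0.16, edgeR adjusted p = 0.874). Leaving out 1 library gave -0.55 to -0.18 for Gfi1b and 0.08 to 0.57 for Erg. Gata2 stood at 0.24, Erg at 0.24, Fli1 at -0.05 and Lyl1 at -0.15, each with an edgeR adjusted p of at least 0.861.

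The related lists gave 0 calls in this comparison, with median log2 fold changes between 0.03 for the stem cell genes and 0.33 for the megakaryocyte target genes. Among cell type markers, the plasma cell gene Jchain and the B cell gene Cd79a were called lower in the libraries labelled Pus10-KO, both with an edgeR adjusted p of 0.0238. Plasma cell markers summed to 8.70 to 15.8 CPM in Pus10-KO and 13078 to 15433 CPM in Pus10-WT. Erythroid markers had a higher value for 6 of 9 (median log2 fold change 2.52), with sums of 478 to 5652 CPM in Pus10-KO and 289 to 1785 CPM in Pus10-WT. Neutrophil markers had one for 5 of 5 tested (median 1.75), with sums of 608 to 3391 CPM in Pus10-KO and 539 to 814 CPM in Pus10-WT, and edgeR called 0 of either list. The part of these cell types in the values of Lmo2, Etv6 and Tal1 was not tested. HSC markers overlapped, at 2167 to 2447 CPM in Pus10-KO and 2163 to 2551 CPM in Pus10-WT, with 0 of 10 called.

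**Figure D4:**
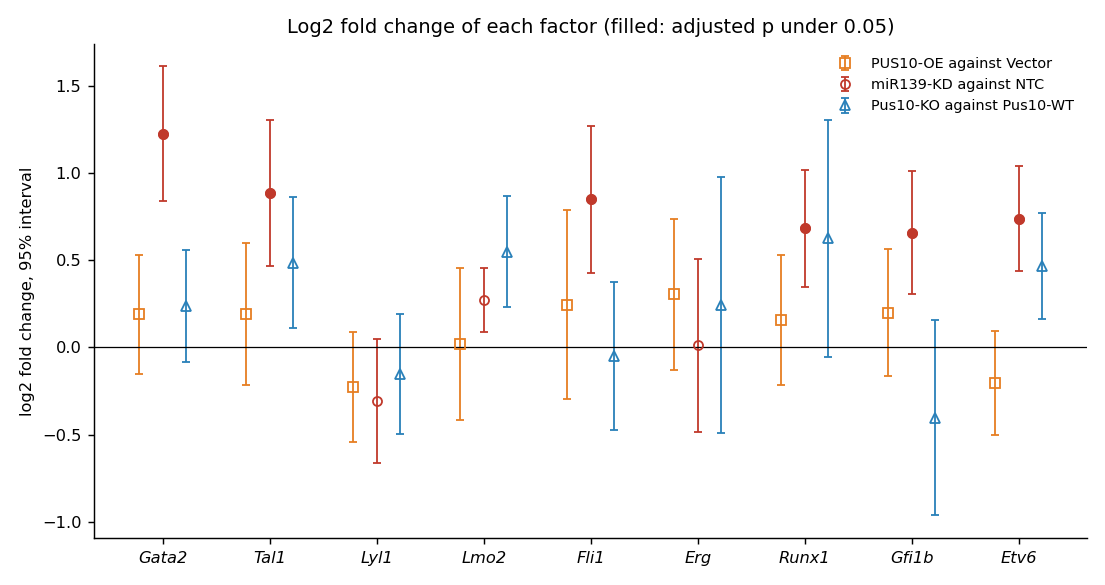
Log2 fold change (vertical axis) of each factor in the 3 comparisons, with 95% intervals from the edgeR fit. Filled points, all in miR139-KD against NTC, have an adjusted p under 0.05 over all genes, and every interval of PUS10-OE against Vector includes 0.

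Across the comparisons, which share no libraries, Gata2, Tal1, Lmo2, Erg and Runx1 had a log2 fold change above 0 in all 3 and Lyl1 one below 0 in all 3. The sign turned under at least 1 other setting or omission for Lmo2 in PUS10-OE, Erg in miR139-KD and Lyl1 in Pus10-KO. Whether the effects differed was tested in 1 edgeR fit of all 24 libraries over 17664 genes. The effect of miR139-KD and that of PUS10-OE differed for 9 genes, or 0.051%, those of miR139-KD and Pus10-KO for 52, or 0.294%, and those of PUS10-OE and Pus10-KO for 4, or 0.0226%. None of the 9 factors was among them.

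The closest was Etv6, whose effect in miR139-KD exceeded that in PUS10-OE by 0.92 on the log2 scale (SE 0.209, 95% interval 0.48 to 1.35, edgeR adjusted p = 0.103). Gata2 exceeded by 1.01 in miR139-KD over PUS10-OE (edgeR adjusted p = 0.208) and by 0.96 in miR139-KD over Pus10-KO (adjusted p = 0.174), and Gfi1b by 1.03 in miR139-KD over Pus10-KO (adjusted p = 0.194). limma-voom called 2 of the 9 for miR139-KD over PUS10-OE, Etv6 with an adjusted p of 0.0126 and Gata2 with 0.0421. Over all 17664 genes tested limma-voom called 180 in this contrast, where edgeR called 9. For Gata2, Tal1, Fli1, Runx1, Gfi1b and Etv6 a call in edgeR in one experiment and not in another is therefore not shown to be a difference between experiments by the same tool.

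Balances between related factors were measured as the log2 ratio of their counts (plus 0.5) within each library, which does not depend on how libraries are scaled to each other. The ratio of Tal1 over Lyl1 averaged -0.49 ± 0.57 in miR139-KD and -1.69 ± 0.64 in NTC (SD, n = 6 each), a difference of 1.20, or 2.30-fold in favour of Tal1 (exact two-sided permutation p = 0.00866, adjusted p = 0.0390 over 9 balance tests). The counts of Tal1 were 0.561 to 1.54 times those of Lyl1 in miR139-KD libraries and 0.178 to 0.601 times in NTC libraries, and NTC replicate 4 with 0.601 overlapped the knockdown range. In miR139-KD replicate 6 alone Tal1 counts exceeded those of Lyl1. Without that library the difference was 0.98 (exact permutation, adjusted p = 0.0487).

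The ratio of Fli1 over Erg averaged 1.96 ± 0.43 in miR139-KD and 1.22 ± 0.28 in NTC, a difference of 0.75 or 1.68-fold (exact two-sided permutation p = 0.00649, adjusted p = 0.0390). Counts of Fli1 were 2.53 to 6.22 times those of Erg in miR139-KD libraries and 1.60 to 2.70 times in NTC libraries. Only miR139-KD replicate 4 fell within the NTC range. For Gata2 over Gata1 the mean was 0.95 ± 0.23 in miR139-KD and 0.07 ± 0.98 in NTC, a difference of 0.88 that did not pass (exact permutation p = 0.0563, adjusted p = 0.169). It passed without NTC replicate 6, at 1.22 (exact permutation, adjusted p = 0.0195). Gata1 itself had 108, 148 and 194 CPM in miR139-KD, against 41.7, 130 and 189 CPM in NTC, and the lowest was that of NTC replicate 6. A ratio shows unequal change and does not say which of its genes moved.

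With 3 libraries against 3 the exact test cannot give a p below 0.1. Tal1 over Lyl1 averaged -2.89 ± 0.28 in PUS10-OE and -3.31 ± 0.17 in Vector, and -1.08 ± 0.15 in Pus10-KO and -1.71 ± 0.46 in Pus10-WT (exact permutation p = 0.2 in both), with overlapping ranges. Fli1 over Erg averaged 2.43 ± 0.70 in PUS10-OE and 2.54 ± 0.25 in Vector, and 2.03 ± 0.21 in Pus10-KO and 2.36 ± 0.37 in Pus10-WT (exact permutation p = 0.8 and p = 0.2). Gata2 over Gata1 averaged 3.60 ± 0.48 in PUS10-OE and 7.23 ± 3.61 in Vector (exact permutation p = 0.1), and 4.02 ± 1.09 in Pus10-KO and 5.35 ± 5.50 in Pus10-WT (p = 1). Vector replicate 2 and Pus10-WT replicate 2 each held 1 count of Gata1, which sets those last ratios.

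**Figure D5:**
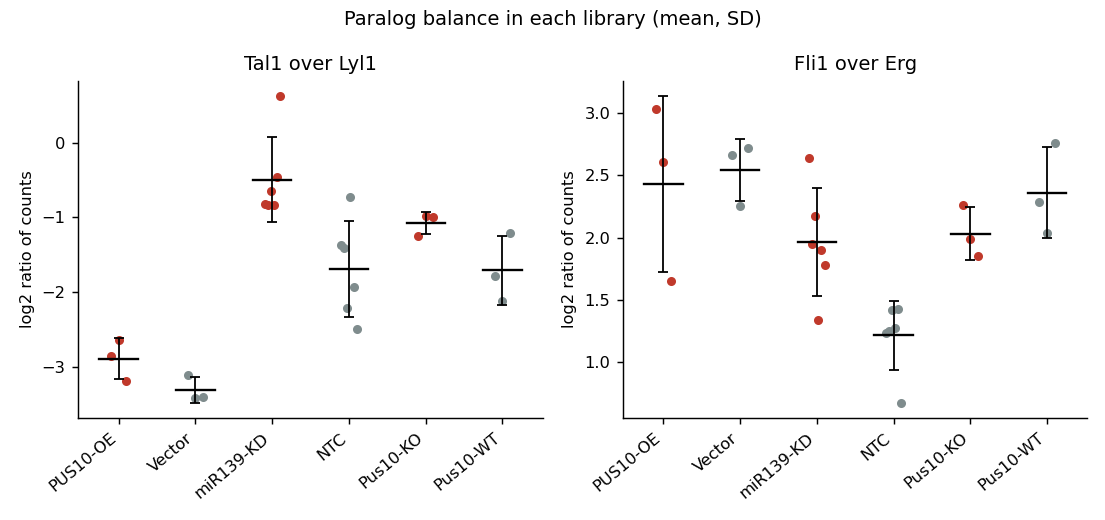
Log2 ratio of counts in each library (points) for Tal1 over Lyl1 and for Fli1 over Erg, with mean and SD per group. Both ratios are higher in miR139-KD than in NTC, by 1.20 and 0.75, with 1 library that makes the ranges overlap in each panel.

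Variation among replicates was set beside that of other genes of moderate level in the same libraries. The median coefficient of variation of the 9 factors was 16.4% in PUS10-OE and 9.58% in Vector, where other genes had 15.2% and 10.5%. It was 18.2% in miR139-KD and 24.1% in NTC, where other genes had 28.7% and 26.1%, and 9.44% in Pus10-KO and 19.0% in Pus10-WT, where they had 21.4% and 20.4%. Over the 24 libraries, with the mean of each experiment removed, the factors most alike were Gata2 and Etv6 (Pearson r = 0.78), Gata2 and Runx1 (0.71) and Tal1 and Etv6 (0.70), and the least alike were Tal1 and Lyl1 (-0.61). These values are a description: they include the differences between groups, and libraries of an experiment share their depth and preparation.

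Of 7705 other genes with a mean log2 CPM of at least 4, the one most alike by the same measure is given for 8 of the factors. It was Gng11 for Gata2 (r = 0.90), Nrgn for Etv6 (0.88), Pmvk for Tal1 (0.87), Trir for Lmo2 (0.85), Myh9 for Runx1 (0.84), Ngrn for Gfi1b (0.84), Limd2 for Lyl1 (0.79) and Phf21a for Erg (0.71). Gng11 encodes a subunit of a G protein, Nrgn the calmodulin-binding neurogranin, and Myh9 the heavy chain of nonmuscle myosin. Erg held 278 to 1024 counts per library.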

How the data were processed

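Sorted HSCs were sequenced with Smart-seq2, per the labels' protocols, in 24 libraries of 6 groups. The deposited values are raw counts of reads per gene, not normalised by the authors. HISAT2 2.1.0, HTSeq 0.11.2, DESeq2 and mm10 are named in the submitters' processing notes, while the sources used here do not give the annotation release. The 5 summary entries of each file stayed out of library sizes: between 3.70% and 12.0% of reads lay in no feature, and between 6.53% and 20.1% were ambiguous. Of 55487 gene IDs 55394 had a symbol in GENCODE M21. Depth set the counting error, and the 9 factors held at least 278 counts in every library. No 2 libraries of a group held identical counts or came near sampling noise (42 pairs, lowest chi-square per degree of freedom 31.9).

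The 2 groups of a comparison were fitted alone in edgeR 4.0.16 (filterByExpr, TMM, robust quasi-likelihood F test, Benjamini-Hochberg adjustment over all genes tested, threshold 0.05) in R 4.3.3, and differences of effects in a fit of all 24 libraries. DESeq2 1.42.0 and limma-voom 3.58.1 with quality weights were alternatives, beside other scalings, filters and the omission of libraries. Balances used exact two-sided permutation tests, adjusted over 9. The edgeR fit was checked on simulated data with 50 genes changed at each fold. It recovered 62% of 2-fold changes in PUS10-OE, 42% in miR139-KD and 20% in Pus10-KO. For 4-fold changes it recovered 100%, 88% and 66% in the same order. The simulated fits called 186 genes for PUS10-OE and 139 for Pus10-KO, where the real fits called 0 and 9. More calls loosen the adjusted threshold, so the recovered shares may be too high for these 2 comparisons. A factor that changed 2-fold could thus go uncalled. The 9 factors and Gata1 were always named, with up to 4 genes of lowest p on miR-139 knockdown from each list, genes of a list called elsewhere, and the most alike gene of each factor. Of the genes this rule names, 2 are not reported here. The members and lists were chosen with earlier results of these data known.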

Additional observations from a re-analysis of the deposited data

Results flagged for a closer look

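Of 44 checks, each of 1 quantity over the 6 libraries of NTC or of miR139-KD, 6 had 1 library far from the others. Chance gives about 1 in 20 for a single check, but these checks share libraries and are not independent. The log2 ratio of Tal1 over Lyl1 was 0.620 in miR139-KD replicate 6, against -0.83 to -0.45 in the other 5. The log2 ratio of Gata2 over Gata1 was 1.39 in miR139-KD replicate 1, against 0.75 to 0.97 in the others. The log2 ratio of Fli1 over Erg was 0.678 in NTC replicate 6, against 1.23 to 1.43 in the others. Plasma cell markers summed to 9456 CPM in miR139-KD replicate 5, against 15.4 to 2891 CPM in the others, and to 10300.1 CPM in NTC replicate 5, against 8.86 to 81.2 CPM. Mast cell and basophil markers summed to 2041 CPM in miR139-KD replicate 6, against 21.98 to 61.6 CPM in the others. The part of these libraries in the balances was not tested beyond leaving each out.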

How the results depend on the processing

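The count of genes called for PUS10-OE was 177 with DESeq2, 9 with a 10 CPM filter and 5 in a fit of all 6 groups. For miR139-KD it was 797 with DESeq2, 792 with all groups, 188 with the replicate number as a block, and 196 to 340 when 1 library was left out. Leaving out NTC replicate 6 and miR139-KD replicate 1 gave 212. Leaving out the 3 libraries that stood apart by plasma cell or by mast cell and basophil markers gave 201. Of the 9 factors 3 (Gata2, Etv6, Fli1) were called with the block and 1 and 1 (Gata2 each time) in those 2 omissions, both chosen after seeing the data, and 2 to 5 when 1 library was left out. For Pus10-KO the genes called were 146 with DESeq2 (1 of the 9 factors, Lmo2), 3 with voom, 2 with the block, 15 with all groups and 0 to 10 on leaving out 1 library. The cause was not tested.

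Differences of effects between miR139-KD and PUS10-OE gave 15 genes with DESeq2 size factors, 17 with the 10 CPM filter, 180 with voom (2 of the 9 factors), 0 with the block and 0 to 24 on leaving out 1 library. Between miR139-KD and Pus10-KO they gave 116 with voom, 13 with the block and 22 to 60, and between PUS10-OE and Pus10-KO 25, 2 and 0 to 8. Same-numbered libraries did not deviate together (correlations -0.10 to 0.02). These correlations give no sign of pairing by number, but they cannot exclude a weak one. With the pairing by number, the balances of 1.20 (Tal1 over Lyl1) and 0.75 (Fli1 over Erg) had an exact sign-flip adjusted p of 0.281. With so few pairs this test, adjusted over 9 balances, could not give a value under 0.05, so it decides nothing. Leaving out 1 library gave 0.63 to 1.22 for Gata2 over Gata1 in miR139-KD, -2.97 to 1.85 in Pus10-KO, and -0.41 to 0.27 for Fli1 over Erg in PUS10-OE.

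Values that turned sign were all uncalled. Lmo2 in PUS10-OE was -0.0265 by library size and -0.0793 with voom, and Fli1 in Pus10-KO 0.0168 by library size. Erg in miR139-KD was -0.0640 without the 3 libraries. With voom the difference of miR139-KD and PUS10-OE effects was 0.0264 for Lyl1, and that of PUS10-OE and Pus10-KO effects -0.0597 for Erg. Leaving out 1 library gave -0.15 to 0.18 for Lmo2 and -0.0073 to 0.47 for Fli1 in PUS10-OE, -0.0763 to 0.190 for Erg in miR139-KD (0.197 without NTC replicate 6 and miR139-KD replicate 1), and -0.27 to 0.0036 for Lyl1 and -0.181 to 0.0638 for Fli1 in Pus10-KO. For differences it gave -0.22 to 0.0040 for Lyl1 (miR139-KD minus PUS10-OE), -0.12 to 0.43 for Runx1 (miR139-KD minus Pus10-KO), and -0.180 to 0.0827 for Gata2, -0.233 to 0.0391 for Lyl1 and -0.27 to 0.22 for Erg (PUS10-OE minus Pus10-KO).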
